A study of Mus musculus with 22 samples.

Results

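The epithelial-mesenchymal state genes are 8 genes taken by symbol from the ribosome footprint tables and joined to the RNA-Seq files by Ensembl identifier: Cdh1, Epcam, Cd24a, Cdh2, Vim, Fn1, Zeb1 and Zeb2. They are 8 of 23081 genes in the footprint tables and 8 of the 20396 genes found in both kinds of file. All 8 were listed in every library, and 7 of them passed the filter on low counts in at least 1 comparison, Cdh1 being the exception.

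Epithelial cells hold to one another through E-cadherin (Cdh1) and carry surface proteins such as EpCAM (Epcam). In an epithelial-mesenchymal transition these are lost while N-cadherin (Cdh2), the intermediate filament protein vimentin (Vim) and the matrix glycoprotein fibronectin (Fn1) are gained. Zeb1 and Zeb2 are zinc-finger repressors that bind E-boxes in the promoters of epithelial genes such as Cdh1. Neural stem cells arise from the neuroepithelium, use N-cadherin at their apical junctions, and express vimentin. Cd24a encodes a small glycosylated surface protein found on epithelial and developing neural cells.

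The cells were neural stem cells (NSCs) derived from mouse embryonic cortex and cultured with EGF and bFGF. Musashi proteins are RNA-binding proteins, and the study asked what gain or loss of them does to mRNA and translation. KH2 cells, labelled as the control, tetO-Msi1 cells (labelled MSI1) and tetO-Msi2 cells (labelled MSI2) were sequenced without doxycycline (Dox) or with Dox at 1 µg/ml, at 72 h. In the last 2 lines Dox switches on a transgene of Msi1 or Msi2. C1 cells are floxed at Msi1 and Msi2 and carry no Cre, and C4 cells are floxed at both genes and carry a tamoxifen-inducible Cre. Both were sequenced without 4-hydroxytamoxifen (4-OHT) or with it, at 48 h. These 10 conditions came from E12.5 embryos. E13.5 cells added KH2 without Dox and tetO-Msi1 with and without Dox. The untreated E13.5 library of tetO-Msi1 was sequenced as technical replicates A and B, which were combined. RNA-Seq covered all 13 conditions in 14 libraries, with 7889966 to 58435172 gene counts each. Ribo-Seq, which sequences the mRNA fragments covered by ribosomes, covered the E12.5 conditions of KH2, tetO-Msi1, C1 and C4 in 8 libraries of 657288 to 6381242 counts. Each condition had 1 library, and the labels name no separate embryos or cultures for any line.

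The targeted genes were checked first. Msi1 mRNA was 129 scaled RPKM in untreated and 701 in Dox-treated tetO-Msi1 cells at E12.5, and Msi2 mRNA was 153 and 824 in tetO-Msi2 cells. In C4 cells Msi2 mRNA was 123 without and 13.54 with 4-OHT. Msi1 mRNA in C4 was 29.6 without and 28.1 with 4-OHT, so only its footprints, 56 reads without and 20 with, were lower in the treated library. All 8 neural stem markers found in the files were at 1 RPKM or more in every library. The summed level of endothelial markers stayed at or under 0.348 RPKM and that of microglia and blood markers at or under 0.0734 RPKM. The footprint libraries of the tet lines were less even than those of the floxed lines. The top 10 genes took 77.6% and 35.9% of the counts in KH2 without and with Dox and 28.5% and 12.4% in tetO-Msi1, against 5.97% to 7.45% in the 4 floxed libraries, so that this difference runs with each comparison of footprints between these lines.

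Levels below are scaled RPKM, that is reads per kilobase and per 1e6 counts of the library size after TMM scaling of the deposited counts. The deposited RPKM are not on this scale. Over all genes their median was 1.11 log2 units higher in the untreated floxed lines than in the untreated tet lines (KH2, tetO-Msi1 and tetO-Msi2) at E12.5, and 1.00 higher at E13.5 than at E12.5. Changes between such groups are therefore given relative to the bulk of genes.

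The files count the same gene over different bases in the 2 assays. For Cdh1, Cdh2, Cd24a, Epcam, Vim and Fn1 the footprints covered 8 exons or more, or the whole of a short coding region (2 exons and 231 nt for Cd24a). For Vim the counted exons held 838 nt of a coding region of 1398 nt, against 1041 nt for mRNA. Zeb1 footprints were counted over 4 exons (672 nt, against 3034 nt for mRNA). Zeb2 footprints were counted over a single exon of 73 nt, against 3288 nt for mRNA, which left 5 to 27 reads a library. That exon lies at chr2:44965536-44965608 on the minus strand of NCBIM37 (mm9), and is the first coding exon of Zeb2 in the GENCODE vM1 annotation. Its sequence is shown because every Zeb2 footprint value below rests on it, with the start codon in capitals.
Zeb2 footprint exon: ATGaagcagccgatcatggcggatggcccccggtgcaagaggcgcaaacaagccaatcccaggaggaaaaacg

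MSI1 binds short RNA motifs with a UAG core, and the 3′ UTRs of the 8 genes differed widely in the 2 motifs counted here, GUAGU and AUAGU (sense strand only, overlapping matches counted). Cdh1 had 8 matches in a 3′ UTR of 1631 nt, or 4.90 per kilobase, above 96.6% of 19335 genes with a UTR of at least 50 nt. Cd24a had 4 matches in 1497 nt, at the 86.0th percentile. Zeb2 had the longest UTR, with 9 matches in 4939 nt (1.82 per kilobase), and Cdh2, Epcam and Zeb1 had 2, 1 and 3 matches, at the 67.6th, 67.6th and 60.0th percentiles. Vim (312 nt) and Fn1 (692 nt) had none. Among all genes 58.7% had at least 1 match and the median was 0.829 per kilobase. For Cdh1, Cd24a, Epcam and Zeb2 a stretch of 30 nt with as many matches as any of that length in the UTR is printed as DNA on the transcript strand, with the motifs in capitals, to show where a Musashi protein could be looked for. These lie at chr8:109193681-109193710, chr10:43302951-43302980, chr17:88049911-88049940 (all plus strand) and chr2:44843038-44843067 (minus strand) of NCBIM37.
Cdh1: cctggtatatATAGTATAGTaagcgaattc
Cd24a: gaccgataaggccATAGTgcagttaggtga
Epcam: ggttactgctttgATAGTtactttgttagt
Zeb2: atactGTAGTgtacagtattATAGTtcttc

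The ZEB proteins recognize the E-box CACCTG, which reads CAGGTG on the other strand. In the RefSeq table of promoters (GRCm38.p6, 250 bases before to 50 after the start), 20.2% of 32851 entries held at least 1 such E-box and 2.88% held 2 or more. The Epcam promoter at chr17:87635729-87636028, plus strand, held 2, and none was found in the entries of Vim and Zeb2. The Epcam sequence is given with the E-boxes in capitals. A match in this window is a string of letters and no measured binding site.
Epcam promoter: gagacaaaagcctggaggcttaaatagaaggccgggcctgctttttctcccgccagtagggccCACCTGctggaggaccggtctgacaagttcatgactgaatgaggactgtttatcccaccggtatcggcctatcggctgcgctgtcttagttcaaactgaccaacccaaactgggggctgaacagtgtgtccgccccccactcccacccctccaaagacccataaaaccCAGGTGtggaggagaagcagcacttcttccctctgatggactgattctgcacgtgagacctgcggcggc

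Cdh1 and Epcam were the lowest of the 8 genes. Cdh1 mRNA had 0 to 35 reads a library and never exceeded 0.303 scaled RPKM. It had no read in untreated KH2 cells of either stage or in Dox-treated tetO-Msi2 cells, which allows levels of up to 0.115, 0.0532 and 0.0901 scaled RPKM for the 3 reads that a count of 0 permits. Cdh1 footprints were 5 and 8 reads in untreated C1 and C4 cells, 1 read in Dox-treated tetO-Msi1 cells and 0 in the other 5 libraries. E-cadherin mRNA was thus at or near the detection limit in each condition, and it was below the filter on low counts in each test.

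Epcam mRNA was low and differed by line. Its levels at E12.5 were 1.45 and 1.24 scaled RPKM in KH2 without and with Dox, 2.75 and 2.49 in tetO-Msi1, and 2.89 and 1.85 in tetO-Msi2. In the floxed lines they were 8.38 and 10.5 in C1 and 6.05 and 8.42 in C4, without and with 4-OHT. At E13.5 they were 0.121 in KH2 and 0.563 and 0.783 in tetO-Msi1, from 2 reads in KH2. The 4 floxed libraries lay above the 9 libraries of the tet lines. Epcam footprints were 23.3 and 1.82 scaled RPKM in KH2 without and with Dox and 4.08 and 0 in tetO-Msi1, and 5.42 and 4.51 in C1 and 11.1 and 7.36 in C4. Footprints of the floxed libraries lay above those of the tet libraries but for untreated KH2. Among the floxed libraries the footprints did not follow the order of the mRNA. These values rest on 0 to 46 reads, and the 0 allows a level of up to 3.73.

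Cd24a, the third surface gene, was well expressed. At E12.5 it was 160 and 158 scaled RPKM in KH2, 162 and 176 in tetO-Msi1, and 161 and 130 in tetO-Msi2, without and with Dox. At E13.5 it was 80.2 in KH2 and 88.9 and 81.2 in tetO-Msi1, below each E12.5 library. C1 gave 150 and 143 and C4 gave 119 and 149, without and with 4-OHT. The C4 pair differed in its untreated library, while both treated libraries were close to untreated C1. Its gene model counts only 151 nt, which left 218 to 1298 reads.

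Among the mesenchymal members, Vim was the highest of the 8 genes in each library, between 4572 and 7479 scaled RPKM. Its levels in KH2, tetO-Msi1 and tetO-Msi2 at E12.5 were 6707, 6443 and 5771 without Dox and 6067, 4572 and 4723 with it. At E13.5 they were 5387 in KH2 and 5184 and 4595 in tetO-Msi1 without and with Dox. C1 had 7349 and 7325 and C4 had 7479 and 6952. In each of the 6 pairs the treated library was the lower one.

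Cdh2, which encodes N-cadherin, stood far above Cdh1 in each library. It was 221 and 227 scaled RPKM in KH2 without and with Dox at E12.5, 209 and 198 in tetO-Msi1, and 179 and 168 in tetO-Msi2. The E13.5 libraries were at 192, 236 and 222, within or close to that range. C1 had 312 and 360 and C4 had 361 and 433, above each tet library.

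Fn1 spanned the widest range of the well-expressed members. It was 63.4 and 68.4 scaled RPKM in KH2 without and with Dox, 50.4 and 31.2 in tetO-Msi1 and 52.0 and 41.1 in tetO-Msi2 at E12.5. At E13.5 it was 27.7 in KH2 and 25.4 and 28.7 in tetO-Msi1. C1 had 335 and 260 and C4 had 371 and 303, without and with 4-OHT, so that the lowest floxed library was still above the highest tet library.

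The repressors were expressed in each library. Zeb1 was 245 and 249 scaled RPKM in KH2, 243 and 240 in tetO-Msi1 and 275 and 277 in tetO-Msi2 at E12.5, and 412, 424 and 414 in KH2 and tetO-Msi1 without and with Dox at E13.5. C1 had 238 and 241, and C4 had 190 without and 246 with 4-OHT. Zeb2 was 84.1 and 84.2 in KH2, 96.3 and 98.4 in tetO-Msi1 and 75.7 and 77.0 in tetO-Msi2 at E12.5, 82.9, 91.8 and 109 at E13.5, and 49.6 to 55.4 in the 4 floxed libraries. Zeb1 separated the stages and Zeb2 separated the floxed from the tet lines, with no overlap in either case.

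**Figure D1:**
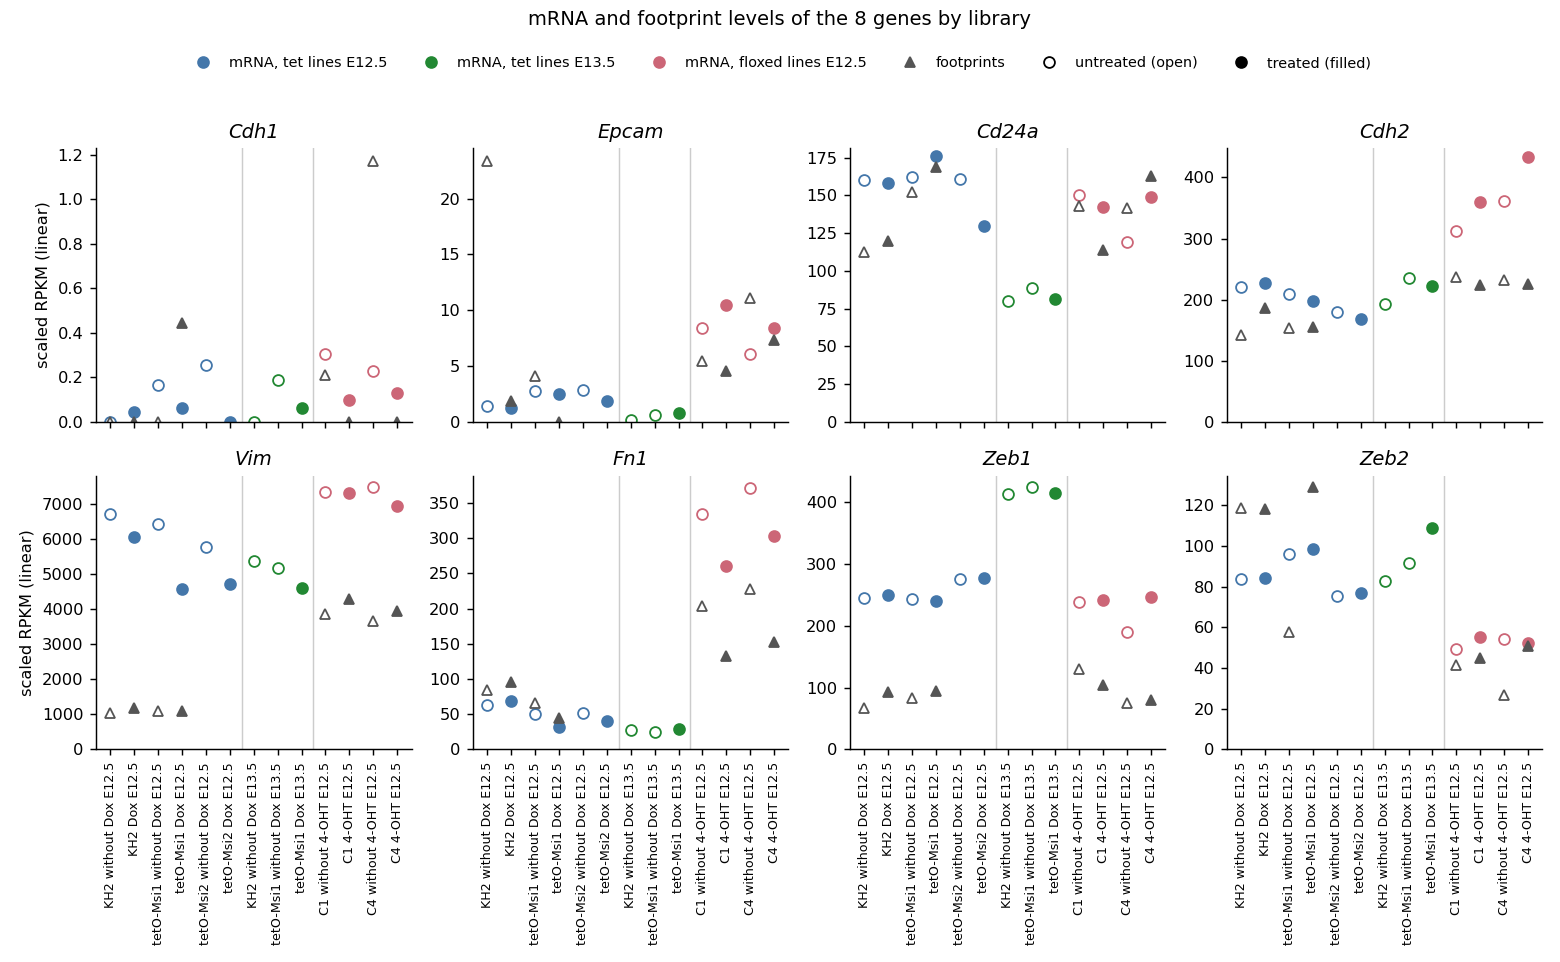
mRNA (circles) and footprint levels (triangles) of the 8 genes, in scaled RPKM on linear axes that start at 0, for the 13 mRNA conditions. Open symbols are untreated and filled symbols are treated libraries, and each symbol is 1 library (the technical pair is combined); Vim footprints lie at 1041 to 1195 in the tet lines and at 3655 to 4296 in the floxed lines, and its mRNA at 4572 to 6707 and 6952 to 7479 at E12.5.

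The first comparison asked how the lines differ before any treatment. Fn1, Epcam and Cdh2 mRNA were higher in untreated floxed cells (C1 and C4, n = 2) than in untreated tet cells (3 lines, n = 3) at E12.5, and Zeb2 was lower. The group means were 353 ± 25.5 against 55.3 ± 7.12 scaled RPKM (SD) for Fn1, a log2 difference of 2.67 ± 0.129 (SE, edgeR adjusted p = 2.41e-05). Epcam differed by 1.59 ± 0.347 (adjusted p = 0.00660) and Cdh2 by 0.72 ± 0.122 (adjusted p = 0.00218). Zeb2 fell by 0.72 ± 0.124 on the log2 scale (adjusted p = 0.00243), from 85.3 ± 10.4 to 52.1 ± 3.49. Vim (0.23, adjusted p = 0.177), Cd24a (-0.26, adjusted p = 0.117) and Zeb1 (-0.26, adjusted p = 0.114) did not pass, though Vim passed with DESeq2 (0.23, adjusted p = 0.0387). Among all genes 66.3% of 12211 passed this test, so 4 of 7 members is near the background. On the deposited RPKM the signs of Zeb2 (0.37), Cd24a (0.81) and Zeb1 (0.82) are positive, each below the median gene. Line, library preparation and the 48 h and 72 h time points cannot be told apart here.

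The wider epithelial and mesenchymal lists held changes in both directions in the same comparison, and the share of tested genes that passed (13 of 23 mesenchymal and 4 of 7 epithelial) was below the 66.3% of all genes. Of 31 mesenchymal genes 23 were tested, 10 were higher and 3 lower in the floxed lines, with a median of 0.72 against 0.00 over all genes. The largest rises were those of Acta2, the smooth muscle actin (3.94 ± 0.461, adjusted p = 4.47e-04) and the hyaluronan receptor Cd44 (3.76 ± 0.184, adjusted p = 2.41e-05). The matrix cross-linker Loxl2 fell by 4.94 ± 0.219 on the log2 scale (adjusted p = 2.28e-05), and Tcf4 by 1.38 and Zeb2 were the other falls. Of 29 epithelial genes only 7 could be tested. Epcam was the 1 that rose, and the junction proteins Tjp3 (-4.24 ± 0.173) and Tjp1 (-0.83 ± 0.0987) and the integrin Itgb4 (-2.98 ± 0.405) fell, with a list median of -0.83. Itgb4 was near the floor, at no more than 0.128 deposited RPKM in any condition.

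TGF-beta signaling drives this transition in many epithelia. Of 16 listed ligands and mediators of TGF-beta and BMP signaling 13 were tested, 5 were higher and 2 lower, with a median of 0.37, no larger a share than the 66.3% of all genes. Tgfb1 (2.08 ± 0.503, adjusted p = 0.0101), Skil (0.84) and Bmp7 (0.80) rose and Tgfb3 (-1.31 ± 0.175, adjusted p = 7.89e-04) and Smad4 (-0.27) fell. Markers of another cell type moved with these lists. Of 4 astrocyte markers tested 3 were higher in the floxed lines, among them Gfap (6.40 ± 0.845, adjusted p = 7.45e-04), and the summed deposited RPKM of the list was 280 to 392 in the 4 floxed libraries against 64.8 to 134 in the 6 tet libraries of E12.5, on a scale where the median gene was 1.11 log2 units higher in the floxed lines. Of 8 neural stem markers 3 were lower, including Hes5 (-4.90), and Nes was higher (1.44 ± 0.249). Markers of meningeal fibroblasts and mural cells summed to 1.48 RPKM at most. Their part in the differences was not tested, and in bulk RNA a change in the share of cells cannot be told from a change per cell.

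**Figure D2:**
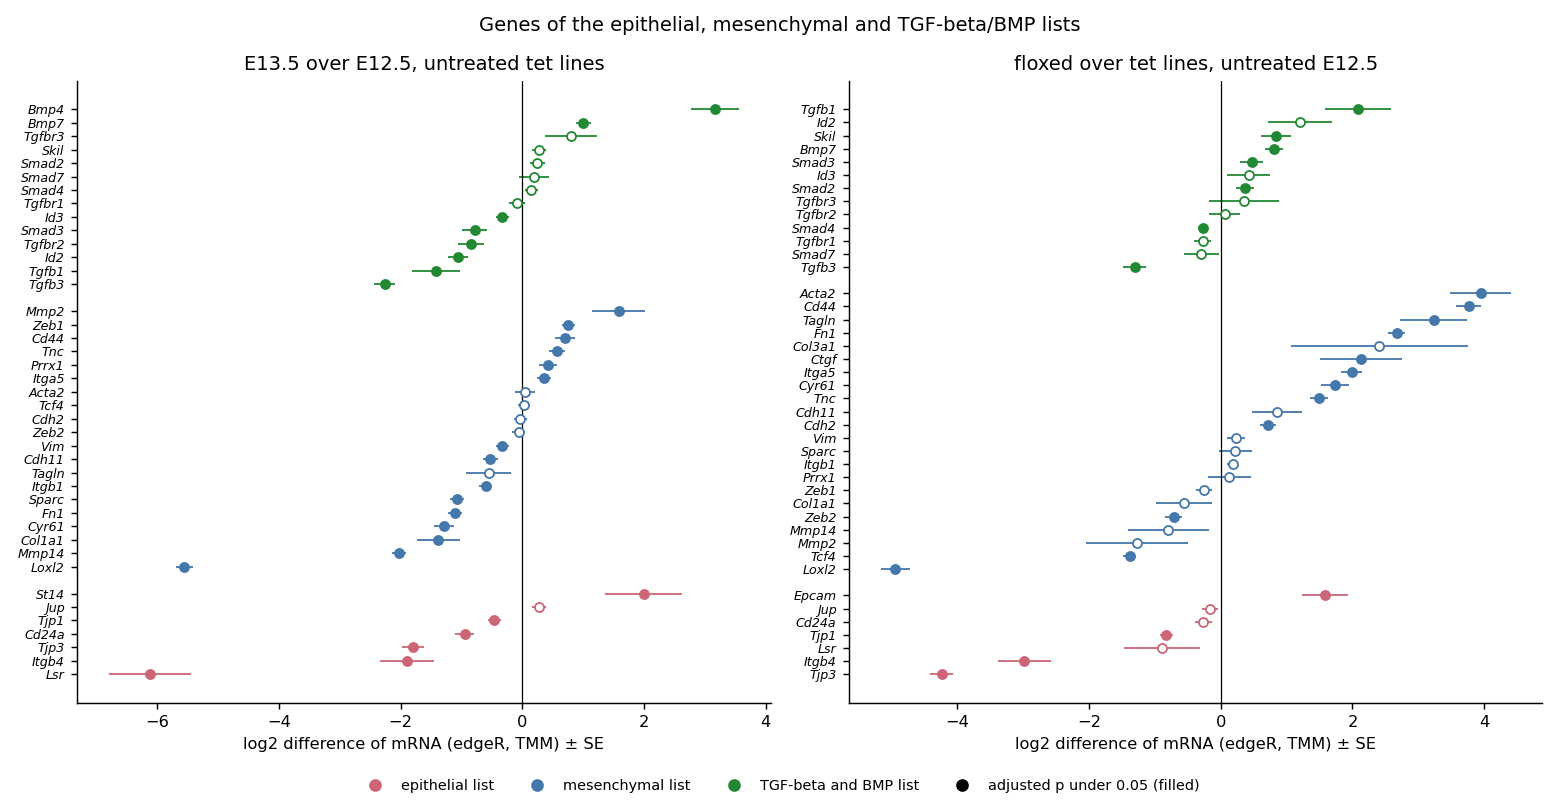
Log2 differences of mRNA with their SE for tested genes of the epithelial, mesenchymal and TGF-beta/BMP lists, at E13.5 against E12.5 (left) and in floxed against tet lines (right). Filled points passed an adjusted p of 0.05; Lsr and Loxl2 lie farthest to the left at E13.5, and Acta2 and Cd44 lie farthest to the right in the floxed lines.

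Vim and Fn1 differed between these lines in translation too, in opposite directions. Translation efficiency (TE), the footprint RPKM over the mRNA RPKM, was set against the median gene of the same library. Vim TE was 0.354, 0.437, 0.385 and 0.526 times the median in KH2 without and with Dox and tetO-Msi1 without and with Dox, which put it between the 3.60th and 11.8th percentiles. In C1 without and with 4-OHT it was 1.13 and 1.25 times, and in C4 1.05 and 1.26 times, between the 53.4th and 65.6th percentiles. The 4 floxed libraries thus lay above the 4 tet libraries with no overlap. In footprints alone, Vim was 3767 ± 159 scaled RPKM in the untreated floxed lines and 1070 ± 41.7 in the untreated tet lines (SD, n = 2 each), while its mRNA was 7414 ± 91.9 and 6307 ± 482.

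Fn1 went the other way. Its TE was 3.04, 3.12, 2.97 and 3.15 times the median in KH2 and tetO-Msi1, and 1.30, 1.09, 1.32 and 1.11 times in C1 and C4. Fn1 footprints were 216 ± 17.3 scaled RPKM in the untreated floxed lines and 75.4 ± 12.9 in the untreated tet lines (SD, n = 2 each), a smaller gap than that of its mRNA. The interaction of assay and line in edgeR, over untreated libraries, gave a TE difference of 1.61 ± 0.283 for Vim (adjusted p = 0.0118) and of -1.14 ± 0.277 for Fn1 (adjusted p = 0.0414). Both passed among 6.33% of 12451 genes. Without the untreated KH2 libraries, among which is the footprint library with most of its counts in 10 genes, Vim was 1.55 and Fn1 -1.13 and neither passed (adjusted p = 0.198 and 0.260), and the same held without tetO-Msi1 (1.68 and -1.15). Fn1 also missed the threshold without C1 (adjusted p = 0.0525).

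The remaining members showed no TE difference past the test. Cdh2 differed by -0.01 ± 0.221, Cd24a by 0.28 ± 0.294, Zeb1 by 0.60 ± 0.340 and Zeb2 by -0.28 ± 0.432 (adjusted p = 1.00, 0.633, 0.337 and 0.848). Epcam, at -2.34 ± 1.00 (adjusted p = 0.202), rested on 11 to 46 footprints a library. Cd24a was at 1.60 to 2.55 times the median TE in the 8 libraries and Cdh2 at 1.15 to 1.82 times. Zeb1, at 0.626 to 1.17 times, was above the median only in untreated C1. Of 23 mesenchymal genes tested 1 rose and 3 fell in TE, in a test that 6.33% of all genes passed. Vim was the rise and Acta2, Fn1 and Cdh11 were the falls. No epithelial gene passed, and of the TGF-beta and BMP list Id3 alone fell (-1.41 ± 0.292, adjusted p = 0.0232).

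**Figure D3:**
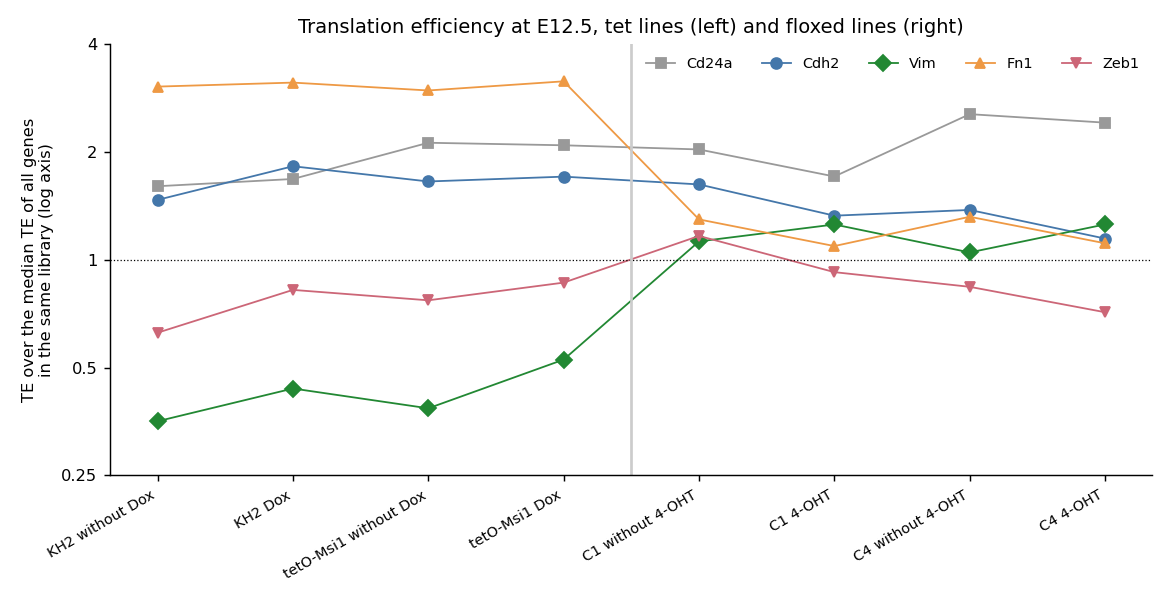
TE of 5 members over the median TE of all genes in the same library (log axis), for the 4 tet libraries and the 4 floxed libraries of E12.5, each point 1 library. Vim lies at 0.354 to 0.526 on the left and 1.05 to 1.26 on the right, and Fn1 at 2.97 to 3.15 and 1.09 to 1.32.

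The second comparison set E13.5 against E12.5 in untreated KH2 and tetO-Msi1 cells (n = 2 each, line as a block). Zeb1 rose by 0.76 ± 0.102 on the log2 scale (edgeR adjusted p = 1.66e-04), from 243 and 245 to 412 and 424 scaled RPKM. Fn1 fell by 1.11 ± 0.108 (adjusted p = 1.93e-05), Cd24a by 0.94 ± 0.154 (adjusted p = 5.73e-04) and Vim by 0.33 ± 0.106 (adjusted p = 0.0238). Cdh2 (-0.03, adjusted p = 0.847) and Zeb2 (-0.06, adjusted p = 0.638) did not pass, and Epcam was below the filter. Without the filter Epcam was also called, at -2.59 (adjusted p = 0.00744), from 2 to 34 reads. Of 11893 genes 50.8% passed, against 4 of 6 members. On the deposited RPKM Vim was 0.64 and Cd24a 0.0049 higher at E13.5, where the median gene was 1.00 higher. Cells of the 2 stages came from different embryos and had different RNA-Seq scaling, so stage and preparation cannot be told apart.

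The wider lists held changes in both directions at E13.5, in a test that 50.8% of all 11893 genes passed. Of 7 epithelial genes tested 5 fell and 1 rose, with a median of -0.94. The tricellular junction protein Lsr fell by 6.12 ± 0.678, Tjp3 by 1.79 ± 0.180 on the log2 scale and Itgb4 changed by -1.89, while the membrane protease St14 rose (1.995 ± 0.634). Lsr, Itgb4 and St14 were near the floor, at no more than 0.431, 0.128 and 0.341 deposited RPKM in any condition. Of 20 mesenchymal genes 6 rose and 9 fell, with a median of -0.20. Mmp2 (1.58), Zeb1 and Cd44 (0.71) were the largest rises, and Loxl2 (-5.56 ± 0.138), the membrane protease Mmp14 (-2.03 ± 0.109) and the collagen Col1a1 (-1.38) the largest falls. Mmp2 and Col1a1 were low too, at no more than 1.17 and 0.629 deposited RPKM. Of 14 TGF-beta and BMP genes 2 rose, Bmp4 (3.17 ± 0.398) and Bmp7 (1.00 ± 0.128), and 6 fell, with Tgfb3 (-2.26), Tgfb1 (-1.42) and the BMP target Id2 (-1.05) the largest. Of 4 astrocyte markers 2 rose (Gfap by 3.75 and Aqp4 by 0.48) and Aldh1l1 changed by -0.33, and of 8 neural stem markers 3 rose, among them Nes (1.19), and 2 fell. Otx2, the 1 choroid plexus marker tested, rose by 1.48. The summed deposited RPKM of that list was 15.8 to 23.5 at E13.5 and 2.31 to 5.06 in the tet lines at E12.5. On that scale the median gene differed by 1.00 log2 units. The sum was mostly Otx2, since Ttr, Aqp1, Folr1 and Clic6 reached at most 0.144, 0.249, 0.277 and 0.0752 RPKM in any condition. The part of these markers was not tested.

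The third question was the effect of Musashi induction. Changes within a pair are log2 ratios of the deposited RPKM less the median of all genes, with 95% intervals that cover counting error only. These intervals leave out the spread between cultures or embryos, which could not be measured here. The technical pair gives a measure of technical spread alone. Between its libraries the 4 members with the most reads (Vim, Zeb1, Cdh2 and Zeb2) had intervals that excluded 0, at sizes of -0.02, -0.02, 0.05 and 0.05, and over 10653 genes 13.03% of intervals did so.

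Fn1 and Vim mRNA were lower with Dox in both induced lines at E12.5. Fn1 changed by -0.67 (-0.76 to -0.58) in tetO-Msi1 and by -0.34 (-0.41 to -0.27) in tetO-Msi2, and by 0.11 (0.05 to 0.16) in KH2. At E13.5 its change in tetO-Msi1 was 0.17 (0.13 to 0.22), of the other sign. Vim changed by -0.47, -0.29 and -0.15 in tetO-Msi1, tetO-Msi2 and KH2 at E12.5 and by -0.18 in tetO-Msi1 at E13.5, with intervals that all excluded 0, so that it was lower in KH2 cells too. Less the KH2 change, which both induced lines share as their control, Vim was -0.33 (-0.35 to -0.31) in tetO-Msi1 and -0.14 (-0.16 to -0.12) in tetO-Msi2, and Fn1 was -0.77 (-0.88 to -0.67) and -0.45 (-0.54 to -0.36).

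Cdh1 had fewer reads with Dox than without in the 3 induced pairs, from few reads in libraries of unequal depth. In tetO-Msi1 at E12.5 it had 1 against 7, in libraries of 7889966 and 20660115 counts, a change of -1.42 (-4.45 to 1.60). It had 0 against 7 in tetO-Msi2 at E12.5. In tetO-Msi1 at E13.5 it had 6 against 23, a change of -1.71 (-3.01 to -0.41). In KH2 it had 2 reads with Dox and 0 without. Cdh1 was also lower with 4-OHT in C1, which carries no Cre, by -1.63 (-2.64 to -0.62, 10 against 35 reads). In C4 it changed by -0.83 (-1.78 to 0.13, 15 against 21). Zeb1 lay between -0.04 and 0.02 in all 4 Dox pairs and Cdh2 between -0.10 and 0.03. Zeb2 was at 0.25 (0.22 to 0.28) in tetO-Msi1 at E13.5 and between 0.00 and 0.05 at E12.5. Cd24a was at -0.31 (-0.53 to -0.09) in tetO-Msi2 and its interval held 0 in the other 3 pairs, as did that of Epcam in all 4.

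Across many genes, 1 member passed the 1.5-fold limit on RPKM, Fn1 in tetO-Msi1 at E12.5 (0.624-fold), where 3.38% of genes passed. No member passed in KH2 (0.944% of genes), in tetO-Msi2 (3.08%) or in tetO-Msi1 at E13.5 (8.22%). In the edgeR test of Dox over both stages of tetO-Msi1, 3.6% of 11938 genes were called and none of the 7 members tested, with Vim at -0.33 ± 0.137 (adjusted p = 0.195) and Fn1 at -0.25 ± 0.155 (adjusted p = 0.476). In the test of the 3 induced pairs against the KH2 pair, 0% of 12167 genes were called, with 584 at an unadjusted p under 0.05 and 0 by DESeq2, and the members lay between -0.38 ± 0.259 (Fn1, adjusted p = 0.971) and 0.14 ± 0.822 (Epcam). Of the lists, the first of these tests called 3 genes. Jup, the junction protein plakoglobin, rose (0.63 ± 0.157, adjusted p = 0.00444), and the matrix proteins Tnc (-1.18 ± 0.157, adjusted p = 1.48e-10) and Loxl2 (-0.89 ± 0.177) fell. The list medians were 0.09 for 8 epithelial, -0.12 for 21 mesenchymal and 0.09 for 14 TGF-beta and BMP genes, against -0.01 over all genes. Of 4 astrocyte markers in this test 1 passed, Gfap, which fell (-0.77 ± 0.198, adjusted p = 0.00675), and the list median was -0.12. Of 4 oligodendrocyte lineage markers 1 fell, with a list median of 0.17. Of 8 neural stem markers, a list that includes Msi1, 1 rose. The part of these markers was not tested.

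**Figure D4:**
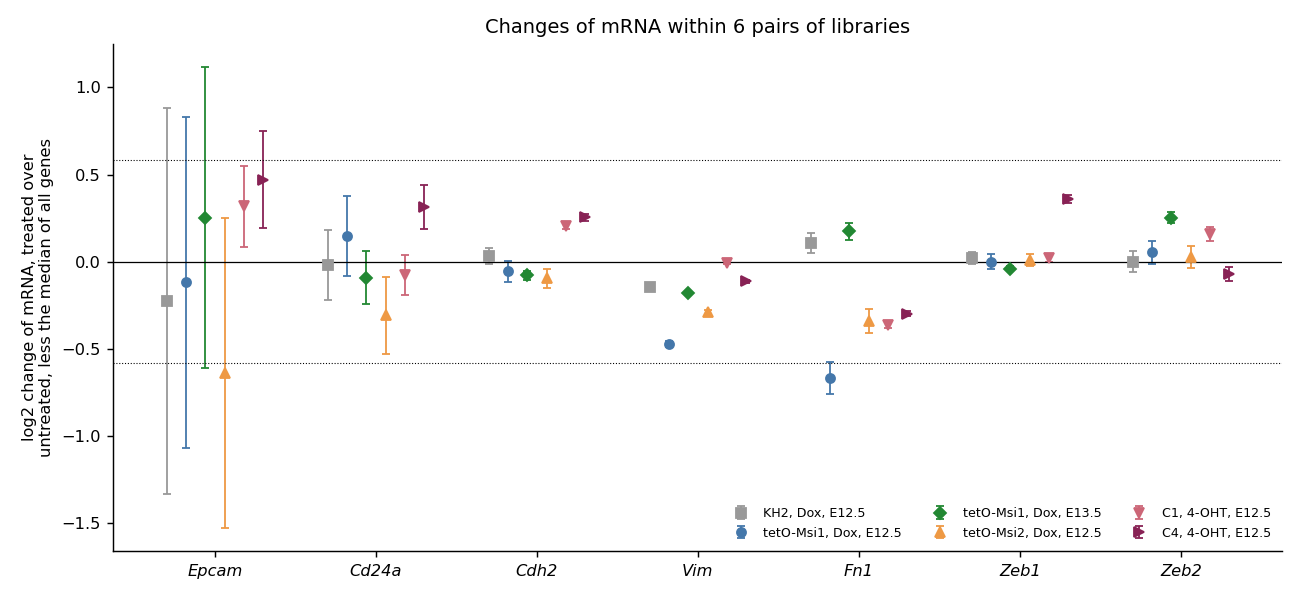
Log2 change of mRNA, treated over untreated less the median of all genes, for 7 members in 6 pairs of libraries, with 95% counting intervals; dotted lines mark 1.5-fold. Fn1 lies at -0.67 in tetO-Msi1 at E12.5 and at -0.37 and -0.30 in C1 and C4, and Zeb1 stands apart only in C4, at 0.36.

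The fourth question was the effect of 4-OHT in the floxed lines, where Cre is present in C4 alone. Fn1 fell and Cdh2 rose over both lines together. Fn1 went from 335 to 260 scaled RPKM in C1 and from 371 to 303 in C4, a change of -0.33 ± 0.0539 (edgeR, line as a block, n = 2 each, adjusted p = 0.0121). Cdh2 went from 312 to 360 and from 361 to 433, a change of 0.23 ± 0.0559 (adjusted p = 0.0494), which missed the threshold with DESeq2 (adjusted p = 0.0524). Both moved in the line without Cre as in the line with it. The test called 5.5% of 11626 genes and 2 of 7 members.

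Zeb1, Cd24a and Epcam were higher in treated C4 cells. Zeb1 changed by 0.36 (0.34 to 0.38) in C4 and by 0.02 (0.00 to 0.04) in C1, a difference of 0.34 (0.31 to 0.37). Cd24a changed by 0.32 (0.19 to 0.44) in C4 and -0.08 (-0.19 to 0.04) in C1, a difference of 0.39 (0.22 to 0.56). In both genes the library that departed from the other 3 was untreated C4. Epcam was higher in both lines, by 0.32 (0.09 to 0.55) in C1 and 0.47 (0.19 to 0.75) in C4, and Zeb2 moved little, by 0.16 and -0.07. Over both lines together none of these passed (adjusted p of 0.234 for Zeb1, 0.641 for Cd24a, 0.243 for Epcam and 0.794 for Zeb2). No member passed 1.5-fold in C1 (1.43% of genes) or C4 (5.97%).

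Of the wider lists, 6 mesenchymal genes fell and 2 rose of 23 tested with 4-OHT, with a median of -0.06 against 0.00 over all genes. Among the falls were the actin-binding and actin genes of contractile cells Tagln (-1.34 ± 0.0835, adjusted p = 5.58e-04) and Acta2 (-1.04 ± 0.0748, adjusted p = 9.95e-04), and Tnc rose by 0.25 beside Cdh2. Of all genes 5.5% passed. Some markers of other cells passed too. Of 4 astrocyte markers Aqp4 fell (-0.53 ± 0.103, adjusted p = 0.0231), and the summed deposited RPKM went from 319.6 to 280.1 in C1 and from 392 to 303 in C4. Of 4 oligodendrocyte lineage markers tested Olig1 rose (0.36 ± 0.0632, adjusted p = 0.0157), and the list median was 0.07. The summed RPKM of that list went from 751 to 858 in C1 and from 586 to 839 in C4. Most of it came from Olig1 and Olig2, with median RPKM of 331 and 155 against 6.06 for Sox10 and 8.28 for Pdgfra. The part of these markers was not tested. Jup (0.42 ± 0.0743, adjusted p = 0.0163) was the 1 epithelial gene of 6 that rose and none fell. None of 13 TGF-beta and BMP genes passed.

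TE moved with the whole library in the C1 pair, where the median TE of all genes fell by 1.46 on the log2 scale. There 38.5% of genes passed 3-fold, and 5 members did (Cdh2, Cd24a, Epcam, Fn1 and Zeb1). Relative to that median they were at -0.26, -0.22, -0.55, -0.22 and -0.31, and none passed. No member passed 3-fold in KH2, tetO-Msi1 or C4, where 1.1%, 1.29% and 2.6% of genes did, but not all members could be called. Cdh1 was below the limit on reads in each pair, Epcam in KH2 and tetO-Msi1, and Zeb2 in C4. Fn1 was left out in tetO-Msi1 for its mRNA change. Epcam TE in KH2 was 9.91 without and 0.973 with Dox, from 23 and 2 footprints. Relative to the median gene, Vim TE was higher in the treated library of each pair, by 0.31 (0.18 to 0.43) in KH2, 0.44 (0.33 to 0.56) in tetO-Msi1, 0.19 (0.15 to 0.22) in C1 and 0.27 (0.22 to 0.32) in C4, the same pairs in which its mRNA was lower. TE and mRNA share the mRNA count, so these are not separate measurements. In footprints alone Vim went from 1041 to 1195 scaled RPKM in KH2, from 1100 to 1102 in tetO-Msi1, from 3879 to 4296 in C1 and from 3655 to 3962 in C4. Cdh2 TE changed with 4-OHT by -0.26 (-0.34 to -0.18) in C1 and -0.25 (-0.36 to -0.14) in C4. Fn1 TE changed by -0.22 in C1 and -0.23 in C4. The difference between C4 and C1 was 0.01 (-0.13 to 0.14) for Cdh2 and -0.02 (-0.11 to 0.08) for Fn1.

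Some genes outside the set followed its members closely over the 13 mRNA conditions, by Pearson r of log2(RPKM + 0.5) among 10849 genes. These were Matr3 (0.995) for Cdh2, Capzb (0.995) for Vim, Ppp2r2a (0.994) for Fn1, Zkscan17 (0.991) for Zeb1, Wdr11 and Med24 (both 0.985) for Zeb2, Shc2 (0.982) for Epcam, and 0610009B22Rik and Stx11 (both 0.972) for Cd24a. The second genes for the others were Gm16309 (0.994), 8430410A17Rik (0.991), Rgs17 (0.993), Fkbp2 (0.989) and Gjc1 (0.979), in the order Cdh2, Vim, Fn1, Zeb1 and Epcam. Between members r was highest for Cdh2 and Vim (0.969) and lowest for Epcam and Zeb2 (-0.080). It was 0.907 for Zeb1 and Zeb2, 0.950 for Cd24a and Epcam, and 0.127 for Zeb1 and Epcam. With Fn1 it was 0.939 for Cd24a and 0.936 for Epcam. The points share the scaling of the deposited RPKM, which raises most genes in the floxed and E13.5 libraries, and these values carry no test.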

How the data were processed

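The deposited mRNA values are a read count and an RPKM per gene, and those of footprints are the same over listed coding exons. The submitters' processing notes name Bowtie, TopHat and mm9, with no versions. The deposited RPKM divide by more reads than the gene counts hold. Members and lists were chosen with earlier results of these data known.

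Genes reaching 1 CPM in 2 or more libraries were tested on counts with edgeR 4.0.16 (TMM, quasi-likelihood test, Benjamini-Hochberg adjustment over all genes, two-sided, threshold 0.05), and DESeq2 1.42.0 was an alternative (R 4.3.3). The technical pair was summed for counts and averaged for RPKM. Lines or stages served as repeats, so p-values measure only the spread between these libraries, and that spread is partly pooled over genes. Against 1 residual degree of freedom, the prior from all genes had 7.59 for 4-OHT and 9.43 for stage. For Dox the prior was infinite, so a gene's own spread did not enter its p-value. Pair changes used RPKM above 0 (or RPKM + 0.5 for counts of genes past 1.5-fold, mean RPKM of at least 1). TE needed more than 5 reads in all 4 libraries and an mRNA change under 1.5-fold. Intervals (95%, delta method on counts) and the floor of 3 reads cover counting error only. From each list, up to 3 genes per direction and test with the largest change were named, and for each member the 2 most similar genes; marker genes were named after their values were seen. 1 gene of the mesenchymal list stays in its counts and medians and is not reported here. In simulated counts with 200 genes changed 4-fold, the tests recovered 100% (Dox, 4-OHT and stage), 91% (induction against KH2), 99% (lines, mRNA) and 74.5% (lines, TE). They also called between 5 (lines, TE) and 18 (Dox) unchanged genes. The simulation gave all genes 1 common dispersion, so it does not show what the tests recover for smaller changes or for genes of larger spread. Python 3.11.15, pandas 2.3.3 and matplotlib 3.10.9 were used. The other RefSeq promoters and protein sequences were not used here.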

Additional observations from a re-analysis of the deposited data

Results flagged for a closer look

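In 4 patterns the changes had counting intervals on opposite sides of 0 in 2 groups under the same treatment, with 1 pair of libraries on each side, so that the difference was not tested against replicates. Fn1 mRNA was lower with Dox in tetO-Msi1 cells at E12.5 and higher in KH2 cells, a difference of -0.77 on the log2 scale after centring on the median gene. The difference between tetO-Msi2 and KH2 cells was -0.45. Fn1 in tetO-Msi1 cells also went opposite ways at the 2 stages, with E13.5 higher than E12.5 by 0.84. With 4-OHT, Zeb2 changed by -0.07 in C4 and by 0.16 in C1, a difference of -0.23.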

How the results depend on the processing

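Of 266 values of single members under the alternatives, 239 kept their sign and, where an adjusted p was given, their side of the threshold. Values on the deposited RPKM have no adjusted p and were judged on sign alone. On the deposited RPKM, an alternative chosen after seeing the data, 3 called values turned: at E13.5 Cd24a was 0.0049 and Vim 0.64, and Zeb2 in floxed cells was 0.37. Without the block, 0 genes were called for Dox and 0 for 4-OHT (0 members), and Vim missed the threshold for stage. DESeq2 called 104 genes for Dox and 1504 for TE, and with 4-OHT 1 member was called with DESeq2 or its size factors. Without the filter on low counts 1254 genes were called for 4-OHT and 20 for induction against KH2. The limit of 2-fold gave 0 members in mRNA and 1 in TE for tetO-Msi1 at E12.5, and 1 in TE for C4; with 2 added to each RPKM, Fn1 in tetO-Msi1 was not counted (0). Centred on the median gene, 0 members passed in TE in C1. Leaving out 1 pair gave 8 to 20 genes for induction against KH2; leaving out 1 line gave 37 to 1553 genes and 0 to 2 members for TE, the lowest count without tetO-Msi1 (55 without KH2) and the highest without C4. The cause was not tested. With 2 libraries a side and a block, 1 residual degree of freedom is left and leaving out a library leaves none, so Dox, 4-OHT and stage have no such value. Pairing by replicate was not possible because the labels give no shared replicate numbers. The blocks named above are lines, stages or treated and untreated pairs, and the calls for Dox and 4-OHT rest on them. Footprint depth limits Zeb2, Epcam and Cdh1.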
